A study of Danio rerio with 8 samples.

Results

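Apolipoproteins are the protein coats of the particles that carry lipid between tissues, and the microsomal triglyceride transfer protein loads lipid onto the largest of them. The 10 genes described here were chosen with earlier results of these data known. They are the A-type apolipoproteins apoa1a, apoa1b, apoa2, apoa4a and apoa4b.1, the B-type apoba and apobb.1, the E-type apoea and the C-type apoc2. The last is mttp, which encodes the large subunit of the transfer protein. They were followed through every probe whose transcript accession belongs to one of them, which gave 13 probes of 43603 on the array. The probes covered 7 of the 10 genes: 2 for apoa1a, 1 for apoa2, 2 for apoa4a, 2 for apoa4b.1, 1 for apobb.1, 1 for apoea and 4 for mttp. No probe was matched to apoa1b, apoba or apoc2, and these are not analysed here. All 13 probes were well above background on all 8 arrays.

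RNA came from whole zebrafish larvae of the WIK background at 4 days post fertilization. There were 4 pools of LIS1 morphants, in which LIS1, a regulator of the motor protein dynein, had been targeted transiently with a morpholino, and 4 pools of control larvae, which the design text calls wild type. Each pool held 10 larvae, both groups were raised from the same batches of eggs, and the morphants had been picked for a mild phenotype and for seizures. Whether controls had been injected is not stated in the labels. Each pool was hybridised to its own 1-colour array, and the arrays with the same replicate number, 1 morphant and 1 control, shared a slide.

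Zebrafish larvae at this age live on yolk. The yolk syncytial layer, a multinucleate tissue around the yolk, digests yolk protein and lipid and packs lipid into B-type lipoproteins, which the circulation carries to the body. The liver and intestine take over lipoprotein secretion as the yolk is used up. In such particles the B-type protein is the structural core, while A-, C- and E-type proteins are exchangeable and steer enzymes and receptors.

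Levels are given in log2 units above or below the array's own 75th percentile of signal, so that 0 is the signal that 75% of probes stay under. Changes are LIS1 morphant minus control on that log2 scale, and a probe was called when its limma adjusted p, corrected over all 36699 tested probes, was under 0.05. Between 83.8% and 88.8% of spots were well above background per array, none was saturated, and 4 arrays per group limit the precision. The 75th percentile itself averaged 1598 ± 154 in morphants and 1237 ± 178 in controls (SD, n = 4 each; exact permutation p = 0.0571, two-sided, where 4 against 4 allows no p below 0.0286). Across the 10 spike-in probes, which detect RNA added at labelling, the median signal averaged 1630 ± 129 in morphants and 2106 ± 271 in controls (SD, n = 4 each; exact permutation p = 0.0571). Scaling to those spike-in probes raised the median change of all probes by 0.74. Changes below are relative to the 75th percentile, and a fall smaller than that shift turns upward on the spike-in scale. On that scale none of the falls of p4hb, dgat1a, dgat2, sar1ab, tm6sf2b, ldlra, nr1d1, rxraa, mxtx2 or rbp4l given below was called.

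Of the 13 probes, 3 were higher in LIS1 morphants, 1 was lower and 9 did not pass the test. The 3 that rose belong to apoa1a, with both of its probes, and to apoa4b.1, with 1 of its 2 probes, and the 1 that fell belongs to mttp. Among all tested probes 38.5% were called, 17.4% as higher and 21.0% as lower, beside 30.8% of these 13. The groups did not overlap for 4 of the 13 probes, against 37.8% of all probes with a value on every array. The median change of the 13 probes was 0.31, beside -0.03 for all tested probes.

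**Figure D1:**
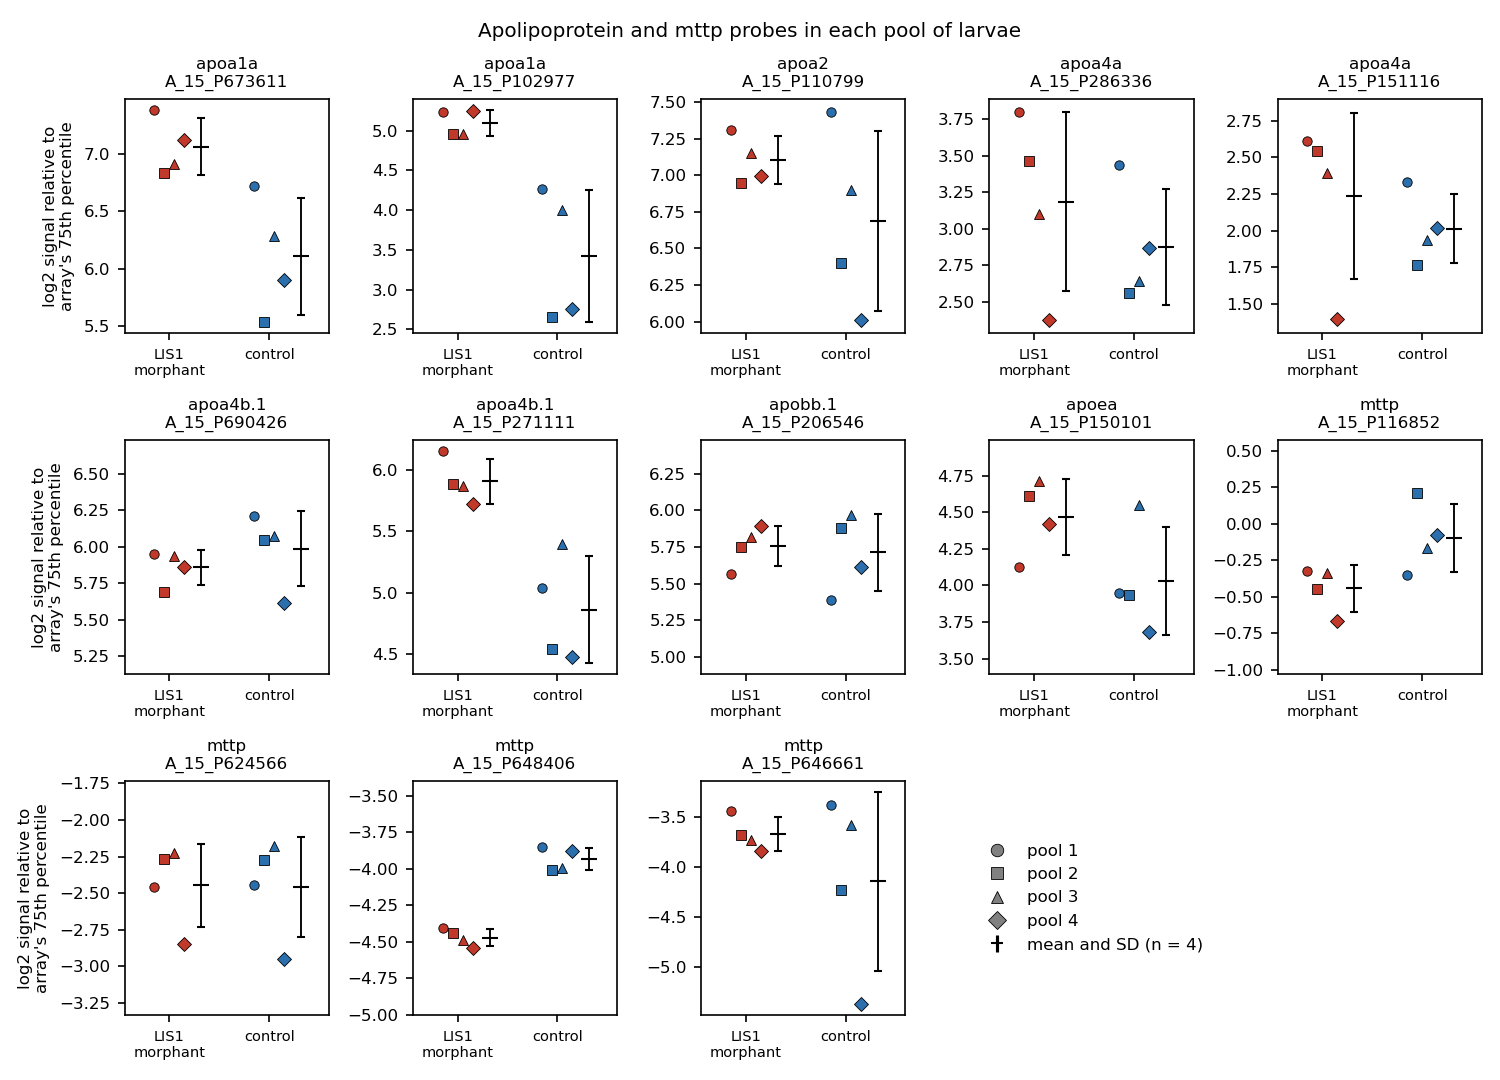
Level of each of the 13 probes in the 8 pools, as log2 signal relative to the array's 75th percentile, with LIS1 morphants left of controls and group means with SD beside the points. Both apoa1a probes and the apoa4b.1 probe A_15_P271111 stand higher in all 4 morphant pools than in any control pool, and the mttp probe A_15_P648406 stands lower.

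apoa1a encodes the main protein of high-density lipoprotein, which collects cholesterol from cells. Its probe A_15_P102977 read 5.24, 4.95, 4.96 and 5.25 in LIS1 morphant pools 1 to 4, against 4.26, 2.65, 4.00 and 2.76 in control pools 1 to 4. The morphant pools lay close together and all above the controls, while control pools 2 and 4 were far below control pools 1 and 3. The change was 1.68 with a standard error of 0.36, or 3.21-fold (limma adjusted p = 0.00712). The other probe, A_15_P673611, read 7.38, 6.83, 6.91 and 7.12 in morphants, against 6.72, 5.53, 6.28 and 5.90 in controls. It too separated the groups, with control pools 2 and 4 again the lowest. Its change was 0.95 with a standard error of 0.25, or 1.94-fold (adjusted p = 0.0174). This second call was lost under normexp background correction with 75th percentile scaling (0.94, adjusted p = 0.0532) and when arrays were scaled to the median of all spike-in spots (1.20, adjusted p = 0.338). On all 4 slides the morphant array exceeded the control array for both probes.

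apoa2 encodes another protein of high-density lipoprotein. It read 7.31, 6.95, 7.15 and 7.0 in LIS1 morphants, against 7.43, 6.40, 6.90 and 6.01 in controls. The groups overlapped because control pool 1 was the highest of all 8 pools, and controls 2 and 4 were again the lowest. The change of 0.42 had a 95% confidence interval of -0.22 to 1.05 (adjusted p = 0.265), which does not exclude a rise of the size seen for the A_15_P673611 probe of apoa1a. It was called in 4 of 18 alternatives: with normexp and quantile normalization (0.68, adjusted p = 0.04), in the deposited value table (0.68, adjusted p = 0.0399), with the spike-in probes (1.16, adjusted p = 0.00516) and without control pool 1 (0.67, adjusted p = 0.0424).

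The A-IV type apolipoproteins, made in the intestine and the yolk syncytial layer of fish, gave probes that differed. For apoa4b.1, probe A_15_P271111 read 6.16, 5.89, 5.87 and 5.72 in LIS1 morphants, against 5.04, 4.54, 5.40 and 4.47 in controls. Every morphant pool was above every control pool, and the change was 1.05 with a standard error of 0.22, or 2.07-fold (adjusted p = 0.00614). Scaled to the median of all spike-in spots it was 1.29 and was not called (adjusted p = 0.269). Probe A_15_P690426, assigned to the same gene, read 5.95, 5.69, 5.94 and 5.86 in morphants, against 6.21, 6.05, 6.07 and 5.62 in controls. These values overlapped, with a change of -0.13 and a 95% confidence interval of -0.47 to 0.22 (adjusted p = 0.536), and the sign turned under normexp with quantile normalization, with both spike-in scalings and in the deposited value table. Scaled to the spike-in probes it was 0.61 and was called higher (adjusted p = 0.0301). The changes of the 2 probes differed by -1.18 (first A_15_P690426, then A_15_P271111). A two-sided exact permutation test over the 8 arrays gave p = 0.0286, the smallest it allows, and 0.0858 after adjustment over 9 pairs of probes. That comparison was added after the probes had been seen to disagree. Which of the near-identical A-IV copies each probe can bind was not tested, so the rise is that of a probe and not of the gene as a whole.

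apoa4a gave no call with either probe when all 8 arrays were used, except on the scale of the spike-in probes. Probe A_15_P286336 read 3.80, 3.47, 3.1 and 2.38 in LIS1 morphants, against 3.44, 2.56, 2.64 and 2.87 in controls. Morphant pool 4 was the lowest of all 8 pools and morphant pool 1 the highest, so the groups overlapped. The change was 0.31, with a 95% confidence interval of -0.41 to 1.03 (adjusted p = 0.467). Probe A_15_P151116 read 2.61, 2.54, 2.39 and 1.40 in morphants, against 2.33, 1.77, 1.94 and 2.02 in controls, with the same low morphant pool 4 (change 0.22, adjusted p = 0.543). Without morphant pool 4, its change was 0.50 and was called (adjusted p = 0.0457), and that of A_15_P286336 was 0.58 (adjusted p = 0.118). Without morphant pool 1 the changes of A_15_P151116 and A_15_P286336 were 0.10 each. On the scale of the spike-in probes, A_15_P286336 and A_15_P151116 changed by 1.05 and 0.96 and were both called (adjusted p = 0.0119 and 0.0159).

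apobb.1, a B-type apolipoprotein and the structural protein of the exported particles, did not pass the test. It read 5.57, 5.75, 5.82 and 5.89 in LIS1 morphants, against 5.39, 5.88, 5.97 and 5.62 in controls. The pools were fully intermingled, and the change of 0.04 had a 95% confidence interval of -0.31 to 0.40 (adjusted p = 0.842). A change as large as that of either apoa1a probe lies outside this interval. apoea, a ligand of lipoprotein receptors, read 4.12, 4.61, 4.71 and 4.42 in morphants, against 3.95, 3.94, 4.55 and 3.68 in controls. All 4 slides had the morphant array above the control array, but control pool 3 stood above morphant pools 1 and 4. The change of 0.44 did not pass (95% confidence interval -0.04 to 0.92, adjusted p = 0.128). Without control pool 3 it was 0.61 and was called (adjusted p = 0.034). Leaving out 1 array at a time gave 0.32 to 0.61 for apoea, and it was called in 2 of 18 alternatives. Scaled to the spike-in probes, apobb.1 and apoea changed by 0.78 and 1.18 and were both called (adjusted p = 0.0302 and 0.00819).

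mttp was the only gene of the 7 with a called fall, and only with 1 of its 4 probes. Probe A_15_P648406 read -4.41, -4.44, -4.49 and -4.54 in LIS1 morphants, against -3.86, -4.01, -3.99 and -3.88 in controls. Before scaling, its processed signals were low and overlapped, at 66.4 to 82.4 in morphants and 71.7 to 93.5 in controls. Once scaled, the groups were tight and apart, with a change of -0.54 and a standard error of 0.10 (adjusted p = 0.00446). That change turned to 0.20 on the spike-in scale. The call was lost under normexp with 75th percentile scaling (-0.20, adjusted p = 0.838) and with quantile normalization (-0.21, adjusted p = 0.0584). With all spike-in spots the change was -0.29 and was not called either (adjusted p = 0.926). In the deposited value table it was -0.30 and still called. Probe A_15_P116852 read -0.32, -0.45, -0.33 and -0.66 in morphants, against -0.35, 0.21, -0.17 and -0.08 in controls, a change of -0.35 that did not pass (adjusted p = 0.102). Probe A_15_P624566 read -2.46, -2.27, -2.22 and -2.84 in morphants, against -2.44, -2.27, -2.18 and -2.95 in controls. Its pools matched within each slide, and the change was 0.01 (95% confidence interval -0.46 to 0.48, adjusted p = 0.967). Probe A_15_P646661 read -3.44, -3.68, -3.73 and -3.84 in morphants, against -3.38, -4.23, -3.58 and -5.38 in controls. Control pool 4 stood far below the rest, and the change of 0.47 did not pass (adjusted p = 0.365). It was 0.06 without control pool 4 and 0.73 without control pool 1. Scaled to the spike-in probes it was 1.21 and was called (adjusted p = 0.0237).

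**Figure D2:**
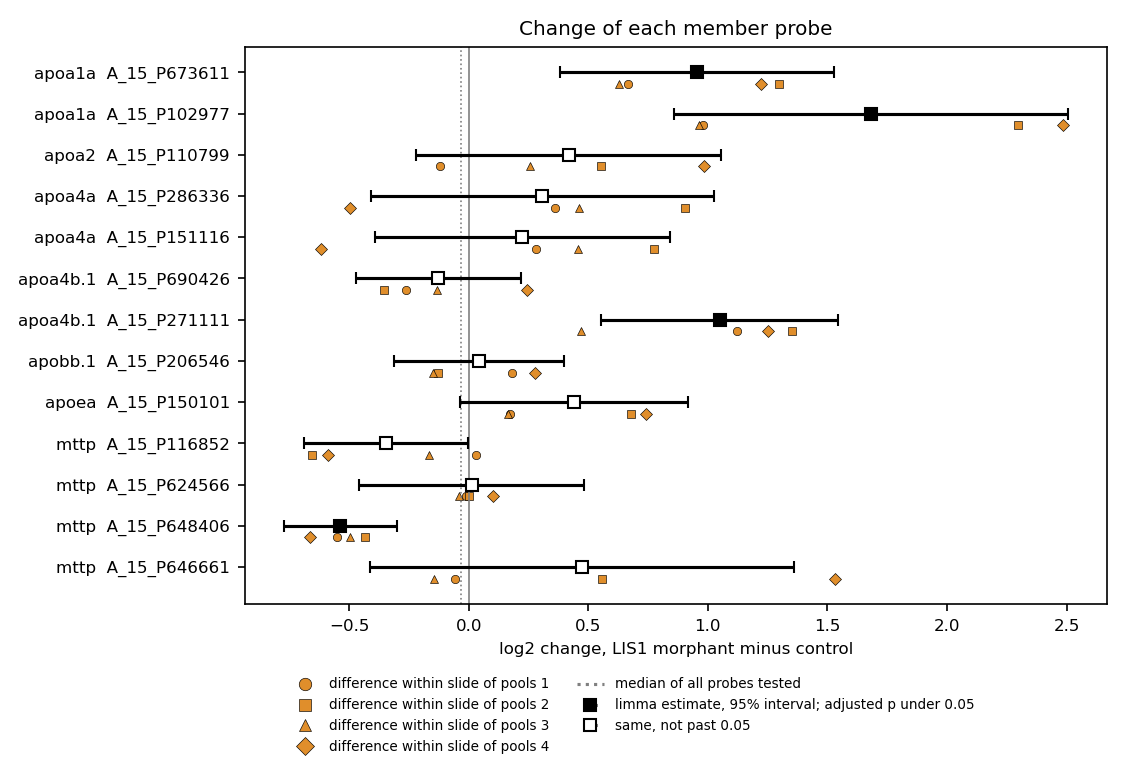
Change of each probe, LIS1 morphant minus control on the log2 scale, as squares with the 95% confidence interval from limma (filled if called), with the 4 within-slide differences under each. The intervals of both apoa1a probes, of apoa4b.1 A_15_P271111 and of mttp A_15_P648406 lie away from 0, that of mttp A_15_P116852 ends just short of 0 although its adjusted p did not pass, and that of apobb.1 is centred near 0.

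Taking the slide as a block changed no call among the 13 probes. The median morphant-minus-control difference of the 13 probes was 0.17, 0.56, 0.16 and 0.28 on the slides of replicates 1 to 4. The slides of replicates 2 and 4, which carry the control pools with low apoa1a, gave the larger medians. The apoa1a probes are among the 13, so these are not separate observations.

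In the gene order of the reference annotation several of these genes are neighbours. apoa4a lies next to apoea, and apoa2 lies next to apoc2 and apoc4 in a run that also holds apoc1, apoeb and apoa4b.2. apoa4b.1 is within 4 genes of apoa4b.2. In that run, apoa4b.1 A_15_P271111 was higher, as was 1 of 8 apoeb probes (A_15_P742716, 0.83, adjusted p = 0.0457), and apoa2 did not pass. apoc4 changed by -0.74, which was not called without the slide block (adjusted p = 0.306) and was called lower with it (adjusted p = 0.0205). The apoa4b.2 probes A_15_P696196 and A_15_P625246 changed by 0.48 and -0.65 (adjusted p = 0.369 and 0.22). Whether neighbours changed alike was not tested.

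The remaining apolipoproteins were a list of 15 genes, 8 of which had 16 tested probes. Of these, 2 probes were higher, none was lower (0 also at an unadjusted p under 0.05 in the limma fit) and 14 did not pass, with a median change of 0.20. In either direction 12.5% were called, which is under the 38.5% of all probes (17.4% higher and 21.0% lower). With the slide as a block 3 were higher and 2 lower, beside 19.9% and 24.3% of all probes. apom, a carrier of sphingosine-1-phosphate in high-density lipoprotein, read 5.48, 5.22, 5.10 and 5.13 in LIS1 morphants, against 5.07, 4.41, 4.82 and 4.20 in controls. Control pools 2 and 4 were the lowest here as well, and the change was 0.61 with a standard error of 0.20 (adjusted p = 0.0401), a call kept in 8 of 18 alternatives. apoeb, the paralogue of apoea, had 8 tested probes with changes from -0.31 to 0.83, of which 1 passed with overlapping groups (A_15_P742716, adjusted p = 0.0457). That probe was named after its values were seen.

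The assembly and secretion list, the enzymes and carriers that build lipoproteins inside the cell, had 16 of 48 tested probes higher and 15 lower, 64.6% called in all beside 38.5% of the whole array, with a median change of -0.04. These counts include the plin2 probes, which entered the test only through the morphants, where they are high. Among the 46 probes well above background on all 8 arrays, 29 were called in either direction, beside 12821 of all 34050 such probes. Several probes belong to the same gene, and 16 of the 23 tested genes had a called probe. All gene lists here were chosen with earlier results of these data known, so a list's share of calls is not a test of its pathway. pla2g12b, which is needed for triglyceride-rich lipoprotein secretion, rose with all 3 probes. Its probe A_15_P198166 read 2.87, 2.39, 2.22 and 2.35 in LIS1 morphants, against 1.91, 0.49, 1.48 and 0.14 in controls (change 1.45, adjusted p = 0.0154). The control pools 2 and 4 that were low for apoa1a were low here too. mogat3b, an enzyme of triglyceride synthesis, rose with 4 of 4 probes, by 0.54 to 1.56. tm6sf2a, whose human counterpart affects very low density lipoprotein secretion, rose by 1.07 (adjusted p = 0.00298) and 1.49 with its 2 probes, while its paralogue tm6sf2b changed by -0.81 (adjusted p = 0.0183), a call lost without control pool 3. plin2, a coat protein of lipid droplets, was at least 2.10-fold higher in LIS1 morphants with probe A_15_P150646, which was not well above background on any control array.

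Several genes of the same list fell. p4hb, protein disulfide isomerase and the small subunit of the transfer protein that mttp belongs to, fell with all 4 probes, with changes of -0.50 to -0.85. Scaled to the spike-in probes these falls were nearly gone: the 4 changes lay between -0.12 and 0.23 and none was called. dgat1a, which makes triglyceride, read -1.19, -1.11, -0.85 and -1.48 in LIS1 morphants, against 0.73, 1.05, 1.11 and -0.71 in controls. Control pool 4 lay near the morphants, but the groups did not overlap, and the change was -1.70 (adjusted p = 0.00858). dgat2, a second enzyme for that step, changed by -1.21 (adjusted p = 0.00689). dgat1b, the paralogue of dgat1a, went the other way, by 0.60 with probe A_15_P139596 (adjusted p = 0.0326, with overlapping groups) and by 0.33 with A_15_P110339, which did not pass. It was named after its values were seen. sar1ab, a coat GTPase of vesicles that leave the endoplasmic reticulum, fell by 1.09 with probe A_15_P620676, whereas the changes of its other probes, -0.14 and 0.10, missed the threshold.

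**Figure D3:**
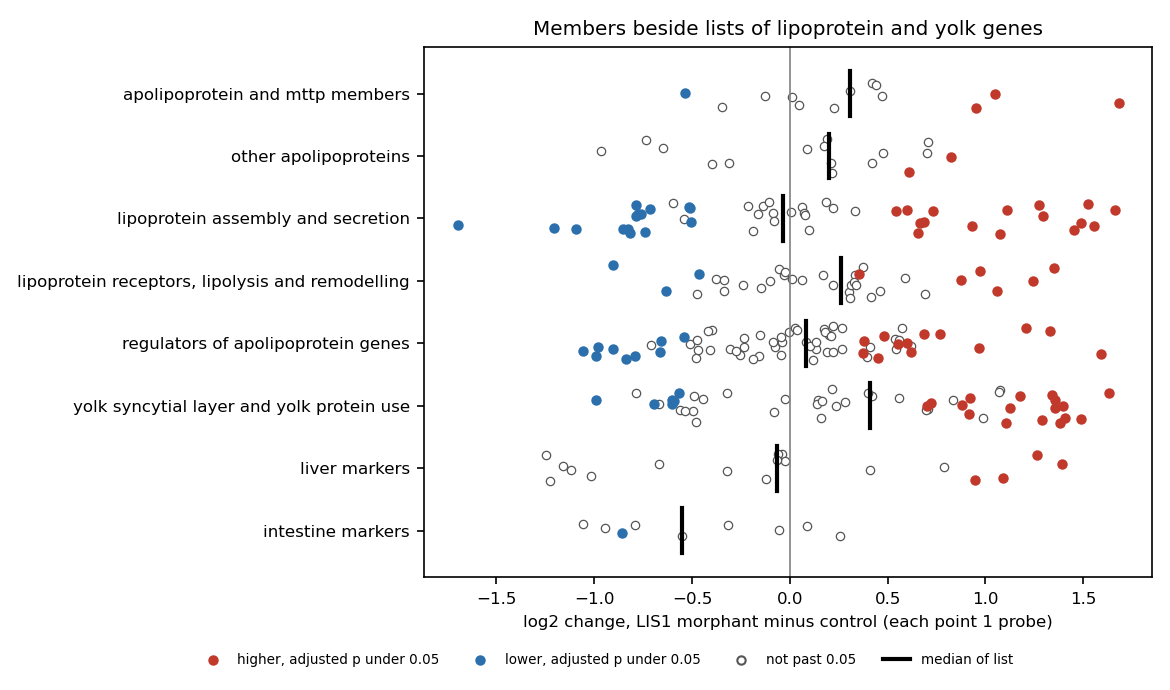
Changes of every tested probe in the gene lists, LIS1 morphant minus control on the log2 scale, with called probes marked. The assembly and secretion list holds called probes in both directions, with a median of -0.04, and the yolk list has a median of 0.41.

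Receptors, lipases and remodelling enzymes had 6 of 34 tested probes higher and 3 lower, or 26.5% called, beside 38.5% of all probes. With the slide as a block, 7 were higher and 5 lower, beside 19.9% and 24.3% of all probes. These counts include the lrp2a probe A_15_P202066, which was called higher and entered the test only through the morphants. Among the 32 probes well above background on all 8 arrays, 8 were called in either direction, beside 12821 of all 34050 such probes. ldlrap1a, an adaptor of the low-density lipoprotein receptor, rose by 0.36 and 1.06. pltp, which moves phospholipid between particles, rose by 0.88 and 0.97 with its 2 probes, and abcg1, a cholesterol exporter, by 1.35 with probe A_15_P677121, while its other probes, at 0.46 and 0.69, did not pass. ldlra, the receptor that takes up low-density lipoprotein, fell by 0.90 (adjusted p = 0.0185), a call lost without morphant pool 1. lpla, lipoprotein lipase, changed by 0.34, -0.03 and 0.06, and none of its probes passed.

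Among the transcriptional regulators of apolipoprotein genes, 13 of 67 tested probes were higher and 9 lower, or 32.8% called, which is not above the 38.5% of all probes. With the slide as a block, 17 were higher and 11 lower, beside 19.9% and 24.3% of all probes. These counts include mxtx2, which was called lower and entered the test only through the controls. Among the 66 probes well above background on all 8 arrays, 21 were called in either direction, beside 12821 of all 34050 such probes. hnf4a, a liver and gut regulator, had changes of -0.24 and -0.23 that were not called (adjusted p = 0.392 and 0.148). Its paralogue hnf4b rose by 1.59 with probe A_15_P112260 (adjusted p = 0.00717), and its second probe, A_15_P740686, at 0.54, was called only with the slide as a block (adjusted p = 0.0167, against 0.116 without). creb3l3a, a regulator of apolipoprotein genes in liver and gut, changed by 0.08 (adjusted p = 0.811). foxa1, a pioneer factor, rose by 1.21 and 1.33 with 2 of its 3 probes (the third, 0.20, did not pass), and srebf2, which drives cholesterol synthesis genes, by 0.97 and 0.77 with 2 of its 3 probes. The third srebf2 probe, A_15_P161091, differed in sign, with a change of -0.41 that did not pass (95% confidence interval -0.75 to -0.07, adjusted p = 0.059). It was the brightest srebf2 probe, with a control mean of 4.65 against 0.26 and -3.12. nr1d1, a clock repressor, changed by -1.06 and -0.90. rxraa, a partner of nuclear receptors, changed by -0.98. mxtx2, which specifies the yolk syncytial layer, was not well above background on any morphant array and was at least 1.44-fold lower in LIS1 morphants.

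The list on the yolk syncytial layer and yolk protein use had 17 of 50 tested probes higher and 6 lower, with a median of 0.41, where 17.4% of all probes were higher and 21.0% lower. These counts include some vitellogenin probes that entered the test only through the morphants, and mxtx2, which entered only through the controls. Among the 44 probes well above background on all 8 arrays, 22 were called in either direction, beside 12821 of all 34050 such probes. With the slide as a block, 23 were higher and 11 lower, beside 19.9% and 24.3% of all probes. ctsd, a protease of yolk breakdown, rose with all 4 probes. Probe A_15_P110857 read 4.58, 4.43, 4.42 and 4.74 in LIS1 morphants, against 2.92, 3.09, 3.57 and 2.97 in controls, a change of 1.40 (adjusted p = 0.000464). ctsla, a related protease, rose by 0.72 and 1.38 with 2 of its 3 probes, and the third, at 0.22, did not pass. The vitellogenins, the yolk protein precursors, had 44 probes, of which 14 were well above background on all 8 arrays and 14 on none. Of the 14 measured on all arrays, 8 were higher and none lower in the limma fit (0 lower also at an unadjusted p under 0.05), with a median change of 1.03. Of all tested probes 17.4% were higher and 21.0% lower. Several of the 14 belong to the same gene, so they are not separate results. rbp4l, a retinol carrier, changed by -0.60, -0.70 and -0.60, which turned upward with the spike-ins.

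**Figure D4:**
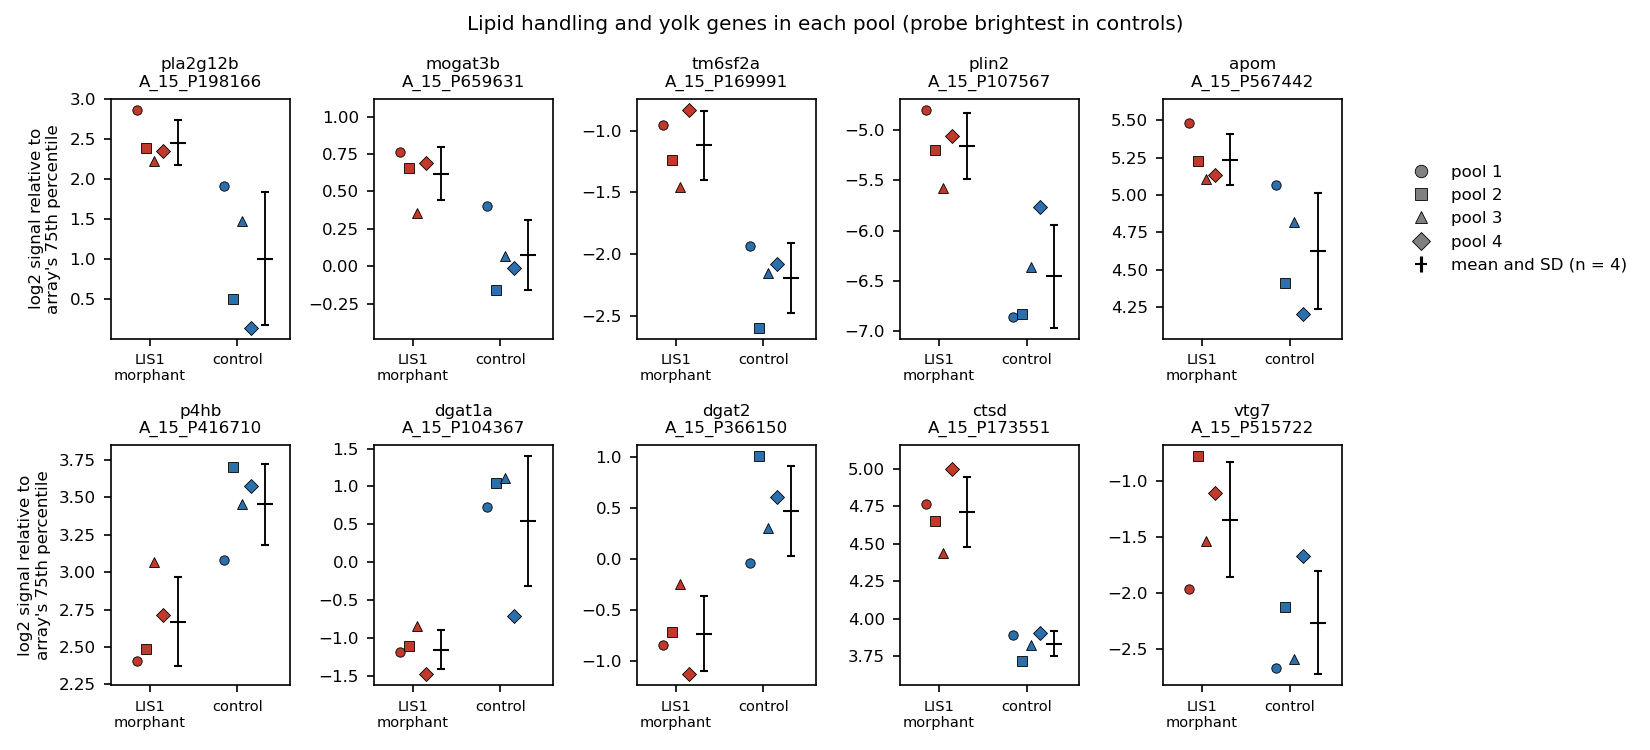
Level of selected genes of the lists in the 8 pools, log2 relative to the array's 75th percentile, LIS1 morphants left of controls. pla2g12b and apom are lowest in control pools 2 and 4, and dgat1a is highest in control pools 1 to 3. Where a gene has several probes, the one with the highest control mean is drawn.

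The tissue label is whole larvae, and every tested probe of the liver, intestine, muscle, neuron, lens and skin markers was well above background on all 8 arrays, other than 2 probes of ahsg1. Muscle, neuron, lens and skin markers had 3 of 11, 1 of 7, 4 of 6 and 2 of 8 probes lower and none higher in the limma fit (1, 0, 0 and 0 higher at an unadjusted p under 0.05). With the slide as a block, 3, 0, 3 and 2 were lower, and 1 muscle probe was higher. Of all tested probes 21.0% were lower and 17.4% higher, or 24.3% and 19.9% with the block. In either direction, 27.3%, 14.3%, 66.7% and 25% of muscle, neuron, lens and skin probes were called without the block. For liver and intestine it was 22.2% and 11.1%, beside 38.5% of all probes. The called probes of muscle, neuron, lens and skin came from 1 gene each: myhz1.1, snap25a, crybb1 and krt5. The intestine call was a vil1 probe. Probes of the same gene are not separate results. Of 18 liver marker probes 4 were higher and none lower, beside 5 lower with the slide as a block, and of 9 intestine marker probes none was higher and 1 lower, beside 5 lower with the block. At an unadjusted p under 0.05 in the limma fit, 2 liver probes were lower and 0 intestine probes were higher. In bulk RNA, fewer cells of a type and less RNA per cell cannot be told apart. The higher liver probes were 2 of 3 each of ambp and cp, at 0.95 to 1.39, with the others at 0.79 and -0.04, while fabp10a changed by -1.24 and -1.23 (adjusted p = 0.0533 and 0.0597, and 0.0149 and 0.0226 with the block). Centred on each probe's mean, the intestine markers had a median of 0.00, -0.10, -0.00 and -0.73 in LIS1 morphant pools 1 to 4, against 0.60, 0.57, 0.62 and -0.57 in control pools 1 to 4. Pool 4 was the lowest of each group for the intestine markers. The liver markers, centred in the same way, had a median of 0.20, 0.32, 0.08 and -0.45 in LIS1 morphant pools 1 to 4. In control pools 1 to 4 the liver median was 0.30, 0.07, 0.08 and -0.13. The part of these markers in the apolipoprotein changes was not tested.

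By root-mean-square difference of the centred profiles over 8 arrays, among 11227 named genes, the gene nearest to the brightest apoa1a probe was bhmt (0.117). Its change of 0.97, beside 0.95 for that probe, follows from its being picked by likeness. Nearest to apoa2 was coq3 (0.106), to apoa4a cd247 (0.23), to the uncalled apoa4b.1 probe A_15_P690426 polr1h (0.0673), to apobb.1 spry4 (0.0562), to apoea ccdc25 (0.119) and to mttp nr4a2a (0.0707). These are likenesses over 8 arrays only.

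**Figure D5:**
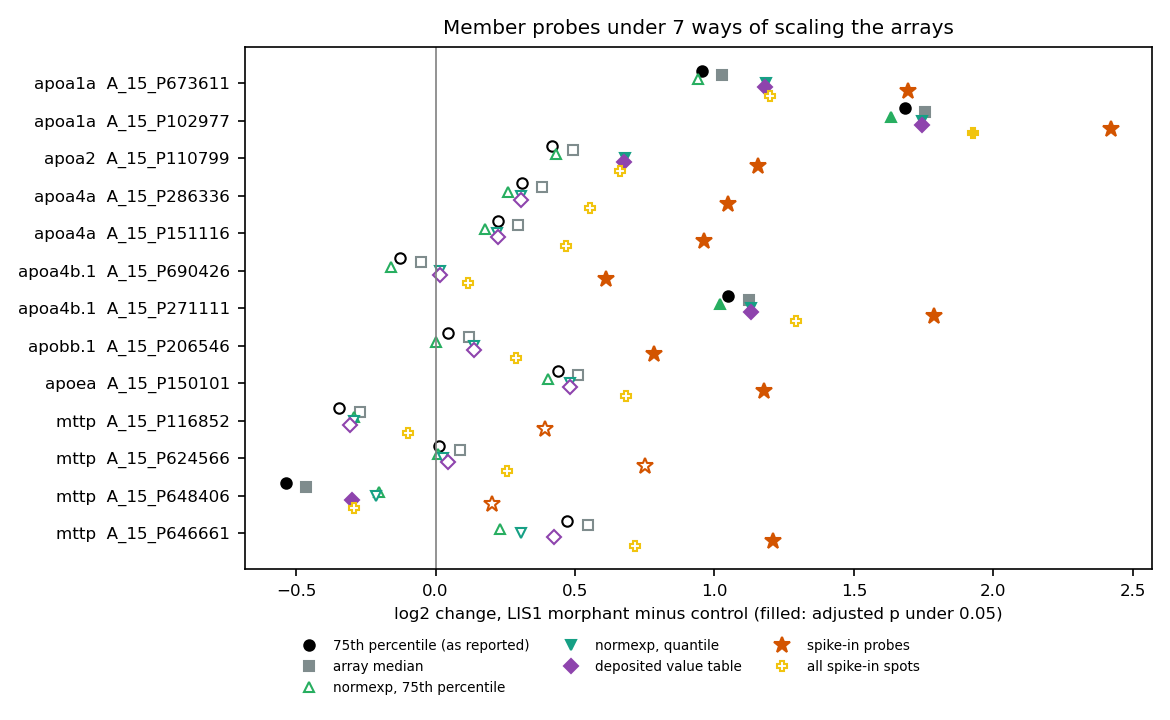
Change of each of the 13 probes, LIS1 morphant minus control on the log2 scale, under 7 ways of background correction and scaling, filled where the adjusted p is under 0.05. Scaling to spike-in probes raises all of them by 0.74 and scaling to all spike-in spots by 0.24, and with all spots 1 probe is called.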

How the data were processed

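Per the labels, total RNA of 8 pools of larvae was labelled with Cy3. The labels' protocol names mouse arrays, but the file headers give a zebrafish design (Agilent 026437, danRer6). The deposited scanner files hold intensity values, which per the file headers came from Feature Extraction 10.7.3.1 and were not yet normalized across arrays. Log2 values in the deposited table were made by a method not given in the sources used here; columns 2, 3 and 4 of each group matched scanner files 4, 2 and 3 of that group.

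From the processed signal, log2 values minus each array's 75th percentile were used, leaving out control and outlier spots and averaging repeated spots. A probe entered the test when all 4 arrays of either group had it well above background. Names came from unversioned accessions in a RefSeq table (GRCz12tu) for 25069 of 43603 probes. Groups were compared per probe with limma 3.58.1 in R 4.3.3 (lmFit, eBayes), with Benjamini-Hochberg adjustment. The fit was tested on simulated data. Lower bounds on a fold compare the bright group's mean with the dim group's, taking on each dim array the larger of 2 signals, the probe's and the faintest one well above background.

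Members and lists were chosen with earlier results of these data known. Named genes were all member probes, up to 4 rises and 4 falls per list among called, non-overlapping probes, some fixed genes and 1 nearest profile per member. Same-numbered arrays shared a slide and scan, and the replicate block rests on that pairing. Their deviations correlated at 0.497, 0.144, 0.335 and 0.299. Only for replicates 1 and 4 was each array's best partner in the other group the same-numbered one in both directions. Morphant pool 3 correlated best with control pool 2, and control pool 2 with morphant pool 3. Normexp used median signals, since no mean signal column was used here, with an offset of 50.

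The spike-in alternative was revised after its values were seen. It was first the median over all spike-in spots, on which control 2 read 950.6 against 3817 to 4342 in the other controls. It was then replaced by the median over spike-in probes, with the spots of each averaged. The definitions give very different counts, and both are reported.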

Additional observations from a re-analysis of the deposited data

How the results depend on the processing

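The direction and call of apoa1a A_15_P102977 held in all 17 alternatives that tested it. With normexp and 75th percentile scaling, 3948 of 36699 probes were called, 2 of 13 members were higher and none was lower. The lists of other apolipoproteins, assembly, receptors, regulators and yolk then had 0, 12, 3, 5 and 6 calls among 16, 48, 34, 67 and 50 probes. Under normexp with quantile normalization no member was lower and apoa4b.1 A_15_P690426 changed by 0.0162, as by 0.0174 in the deposited table. Without the filter on dim probes the other apolipoproteins had 0 of 16 probes called, beside 14121 of all 43603. With the replicate block they had 5 of 16 called, beside 44.1% of all probes. With 1 probe a gene, 8961 of 23394 were called, and of 7 members 1 was higher and 0 lower. The assembly, receptor, regulator and yolk lists then had 14, 3, 10 and 8 calls.

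The 2 forms of the spike-in scaling gave very different counts, and the choice between them was made after the first had been seen. With the median over spike-in probes, 22170 of 36699 probes were called (20598 higher, 1572 lower, 7.09% lower against 54.7%), with a median change of 0.71. Beside that share, 10 of 13 members were higher and 0 lower, and their median was 1.05. The lists of other apolipoproteins, receptors and regulators had 11 of 16, 24 of 34 and 42 of 67 probes called. apoa4b.1 A_15_P690426 then changed by 0.61, mttp A_15_P116852 by 0.39 and mttp A_15_P648406 by 0.20. With the median over all spike-in spots, the first form tried, 1971 probes were called (1171 higher, 800 lower), and 1 member was higher, apoa1a A_15_P102977 (adjusted p = 0.0263), and 0 lower. There apoa1a A_15_P673611 (adjusted p = 0.338) and apoa4b.1 A_15_P271111 (adjusted p = 0.269) were not called. The members' median was 0.55, apoa4b.1 A_15_P690426 changed by 0.12, and the 5 lists, in the order above, had 0, 2, 0, 1 and 1 calls. Control pool 2 alone set that scale apart, and why its spots read low was not tested. Of the calls above 0 among members, only that of apoa1a A_15_P102977 therefore held under both forms and all other settings.

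Leaving out 1 array at a time gave 3 to 4 members higher, 1 to 1 lower, a median of 0.11 to 0.45 and 10546 to 14773 calls. The 5 lists had 0 to 4, 21 to 28, 5 to 9, 17 to 25 and 14 to 25 calls. mttp A_15_P624566 ranged from -0.149 to 0.145 and apobb.1 from -0.0643 to 0.13. The replicate block changed no call among members.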
